A study of Homo sapiens and Mus musculus with 12 samples.

Results

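The 40 genes described here carry out mitosis and the step from G2 into mitosis. They were listed by symbol, found in the human table through the symbols the authors paired with Ensembl identifiers, and found in the mouse table through gene descriptions. All 40 were found in both tables, among 60675 human and 47729 mouse gene identifiers. The list spans 7 roles: 5 genes for proliferation marking and chromosome compaction, 6 for the cyclin-CDK1 switch, 5 mitotic kinases and their partners, 6 for the spindle checkpoint and anaphase, 5 kinetochore genes, 7 spindle assembly genes and 6 genes of the central spindle and cytokinesis.

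RNA-seq was done on cortical organoids, 3-dimensional cultures that stem cells form when directed toward forebrain. Human organoids grew from the established embryonic stem cell line H9, labelled either WT or NOTCH2NL knockout (KO), and were taken at week 4 (day 28) as pools of 5 to 10 organoids. Mouse organoids grew from stable lines of 46C embryonic stem cells with either an empty vector (EV, the control) or human NOTCH2NL-Sh_T197I (N2NL), and were taken after 6 days as pools of 16. Each of the 4 groups had 3 libraries, of polyadenylated RNA. All 3 WT libraries carry the line code H9_WT_E2del19 and all 3 KO libraries H9_KO_E5del42, so genotype and line cannot be told apart, and the same holds for vector and line in mouse. Whether the pools within a group had separate origins is not stated, so the p-values measure the spread between pools, which may be technical.

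A cell enters mitosis when CDK1, a kinase, is bound by cyclin A or cyclin B and freed of inhibitory phosphate by CDC25 phosphatases. Most genes of this list are transcribed in a wave in G2, by complexes that hold MYBL2, FOXM1 and the LIN proteins, and are kept silent in resting cells by a related complex. These complexes act through a promoter element named CHR, and many such promoters also hold boxes bound by the factor NF-Y. In developing cortex, radial glia and intermediate progenitors divide, whereas neurons have left the cycle, and RNA of most of these genes is found mainly in dividing cells. In bulk RNA, fewer dividing cells and less RNA per dividing cell cannot be told apart.

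The promoters of 4 of the 5 members with the lowest p-values are shown (NDC80 is not), and they differ in the elements found. The windows run from 150 bases before to 20 bases after the start in RefSeq (build GRCh38.p14), 5′ to 3′ on the gene's strand, and capitals mark a CHR element (TTTGAA or TTCGAA) or a box bound by NF-Y (CCAAT), each on either strand. CCNB1 lies at chr5:69167000-69167169 (plus strand), CENPE at chr4:103198324-103198493 (minus), MKI67 at chr10:128126404-128126573 (minus) and CCNA2 at chr4:121823864-121824033 (minus).
CCNB1: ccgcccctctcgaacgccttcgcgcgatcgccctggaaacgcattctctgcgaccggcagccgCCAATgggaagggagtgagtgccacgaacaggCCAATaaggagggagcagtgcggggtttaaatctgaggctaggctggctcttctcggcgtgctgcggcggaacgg
CENPE: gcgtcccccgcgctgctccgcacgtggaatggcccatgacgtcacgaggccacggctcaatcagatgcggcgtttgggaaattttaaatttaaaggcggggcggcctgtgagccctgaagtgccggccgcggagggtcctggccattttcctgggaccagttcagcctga
MKI67: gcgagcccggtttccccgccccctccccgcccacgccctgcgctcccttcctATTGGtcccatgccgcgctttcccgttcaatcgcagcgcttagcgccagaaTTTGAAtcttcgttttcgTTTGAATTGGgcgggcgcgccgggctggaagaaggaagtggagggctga
CCNA2: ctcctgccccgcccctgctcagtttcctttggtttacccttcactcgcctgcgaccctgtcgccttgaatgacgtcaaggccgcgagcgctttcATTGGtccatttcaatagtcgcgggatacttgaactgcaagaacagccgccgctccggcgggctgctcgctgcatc

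CCNB1 held 2 NF-Y boxes and no TTTGAA or TTCGAA in this window, and CCNA2 held 1 box. MKI67 held 2 of each, with a CHR element and a box overlapping by 1 base, and CENPE held no match to either search. Over the whole RefSeq window, 250 bases before to 50 after the start, 34 of the 40 members had an entry. AURKA, BIRC5, TTK, BUB3, UBE2C and TPX2 had none. A CHR element was found in 27 of these 34 promoters (79.4%), against 16.4% of all 35116 promoters in the table. A CCAAT box was found in 25 (73.5%, against 34.6%), both together in 20 (58.8%, against 6.38%), and neither in 4. The CHR elements sat close to the start: 21 promoters (61.8%, against 4.28% of all) had one between 60 bases before and 20 after it. These are matches of letters. Other forms of the CHR element were not searched, so a promoter without a match may still hold one, and no binding was measured.

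The libraries held 15381409 to 16382938 counts in human and 16781742 to 20960391 in mouse. Levels are given as CPM, the usual per-library scaling of a gene's read count, here with TMM factors, and a gene is called when the edgeR quasi-likelihood test gives a Benjamini-Hochberg adjusted p under 0.05 over all genes tested. The row named NOTCH2NL, which shares sequence with near-identical copies, held 4, 5 and 3 counts in the WT libraries and 0 in each KO library, and in the authors' deposited table it had normalized values of 801, 709 and 740 in N2NL and 0 in each EV library. The human WT libraries stood apart from each other for the members: WT replicate 2 was the lowest of all 6 libraries for 39 of the 40, and WT replicate 1 was the highest WT library for 37. The human calls and median of the members are therefore also given without WT replicate 1 or 2. So are the range of the role medians and the medians of the lists of further mitosis genes, G2/M regulators and replication genes. No source used here says whether reads were counted by strand. The levels of the 17 members that overlap a gene on the opposite strand in GENCODE 29 are therefore uncertain, NCAPG, CCNA2, PLK1, CENPF, NDC80 and KIF11 among them, whereas CCNB1, CENPE and MKI67 overlap none. Over 6 markers of pluripotent cells, the human libraries summed to 5.25 to 14.4 CPM in WT and 3.43 to 8.75 in KO. Among these, POU5F1 and NANOG were at no more than 0.0663 CPM in human. The mouse libraries, taken after 6 days, summed to 475 to 577 CPM over the same markers.

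In human organoids, mitotic transcripts tended to be higher in KO than in WT, but few passed the test. Of the 40 members, all tested, CCNB1 and CENPE rose in KO and none fell. That is 2 called higher, where 2.31% of all 16956 genes tested were called higher, 3.19% lower and 5.5% either way, so the share called was close to the background. By direction, 38 of the 40 had a log2 fold change above 0, against 49.3% of all genes, and the median was 0.32, against -0.00. An unadjusted edgeR p under 0.05 was reached by 14 members, all higher in KO, where 22.8% of all genes reached it in either direction. In 16 members every KO library was above every WT library (14.1% of all genes), and in none was every KO library below (14.8%).

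Summed over the 40 members, the level was 3863, 2590 and 3304 CPM in WT replicates 1, 2 and 3 and 4366, 4017 and 3875 in KO replicates 1, 2 and 3. All KO libraries were above all WT libraries, KO replicate 3 only narrowly above WT replicate 1. The means were 3252 ± 638 CPM in WT and 4086 ± 253 in KO (SD, n = 3), a ratio of 1.26. Without WT replicate 2 the median member log2 fold change was 0.16 and 33 members stayed above 0, and without WT replicate 1 the median was 0.47. The count of called members was 3 without WT replicate 2 (CCNB1, CENPE and MKI67), where 2.88% of all genes were called either way. It was 19 without WT replicate 1, where 8.27% of all genes were called. It was 0 without any 1 of WT replicate 3 and KO replicates 1, 2 and 3, where 1.29% to 3.03% were called. In those last fits 8 to 13 members had an unadjusted edgeR p under 0.05. The share of all genes in these fits was not counted, and was 22.8% with every library kept.

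**Figure D1:**
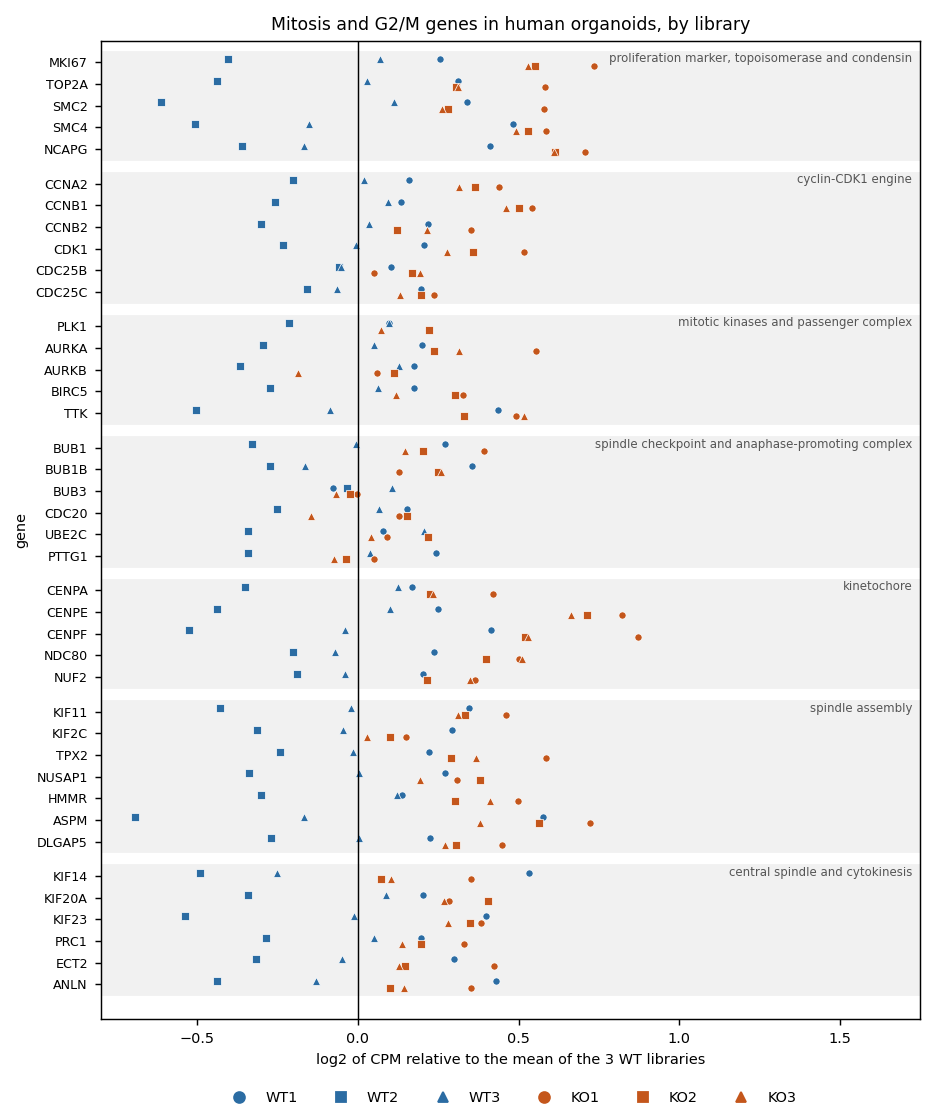
Level of each member in each human library, as log2 of its CPM relative to the mean of the 3 WT libraries (x axis; 0 is that mean), with genes grouped by role (y axis). Blue marks are WT and orange marks KO, with a circle, square and triangle for replicates 1, 2 and 3; the WT square is leftmost for 39 of the 40 genes, and most orange marks lie right of 0.

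The spread between pools differed by genotype for these genes. The highest WT library exceeded the lowest by a median of 1.46-fold over the members, up to 2.41-fold for ASPM, while the KO libraries spanned a median of 1.14-fold and at most 1.28-fold, for CENPF. As a median coefficient of variation this was 19.2% in WT and 6.64% in KO, where tested genes of like level had 8.98% and 7.79%. The members largely moved together from pool to pool in WT. WT replicate 2 was the lowest for all but BUB3, whose lowest library was WT replicate 1. WT replicate 3 was the highest WT library for 3 members, BUB3 and UBE2C among them.

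MKI67 encodes Ki-67, the coat protein of mitotic chromosomes used as a marker of dividing cells. It was at 224, 142 and 197 CPM in WT replicates 1, 2 and 3 and at 312, 275 and 271 in KO. All KO libraries lay above all WT libraries, and the log2 fold change of 0.61 ± 0.16 (SE) had an edgeR adjusted p of 0.0607. NCAPG, a subunit of condensin, which compacts chromosomes, was at 59.0, 34.6 and 39.5 CPM in WT and 72.4, 67.9 and 67.7 in KO, again without overlap (log2 fold change 0.64 ± 0.18, edgeR adjusted p = 0.0817). TOP2A, the topoisomerase that untangles sister chromatids, was at 427, 254 and 351 CPM in WT and 515, 425 and 427 in KO. Its KO replicates 2 and 3 fell at or below WT replicate 1, so the groups overlapped (0.40 ± 0.18, edgeR adjusted p = 0.238). The condensin core subunits SMC2 and SMC4 had log2 fold changes of 0.38 and 0.54. None of the 5 genes was called, and their median of 0.54 was the highest of the 7 roles.

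CCNB1, cyclin B1, the main partner of CDK1 at mitotic entry, was at 110, 83.8 and 107 CPM in WT and 146, 142 and 138 in KO. The KO libraries agreed closely and all lay well above WT, with means of 142 ± 3.74 and 100 ± 14.5 CPM (SD, n = 3), a ratio of 1.41. CCNB1 rose by 0.50 ± 0.11 on the log2 scale (edgeR adjusted p = 0.0269). Leaving out WT replicate 1 or 2 kept the call, whereas leaving out any other library gave an edgeR adjusted p of 0.0585 to 0.106.

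CDK1 itself was at 61.1, 45.1 and 52.8 CPM in WT and 75.9, 68.0 and 64.2 in KO. No library overlapped, and the log2 fold change was 0.39 ± 0.12 (edgeR adjusted p = 0.0902). CCNA2, cyclin A2, which acts before cyclin B, was at 52, 40.5 and 47.2 CPM in WT and 63.2, 60.0 and 57.9 in KO, also without overlap (0.38 ± 0.11, edgeR adjusted p = 0.0713). CCNB2, CDC25B and CDC25C had smaller log2 fold changes, 0.23, 0.14 and 0.19, and overlapping libraries. The role thus held 1 called gene of 6, with a median of 0.30.

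Of the mitotic kinases, PLK1, which acts at centrosomes, kinetochores and the midbody, was at 122, 98.4 and 122 CPM in WT and 133, 133 and 120 in KO. KO replicate 3 fell below both higher WT libraries, and the log2 fold change was 0.17 ± 0.10 (edgeR adjusted p = 0.353). AURKA, the centrosomal Aurora kinase that matures the spindle poles, was at 33.7, 23.9 and 30.4 CPM in WT and 43.1, 34.6 and 36.5 in KO, without overlap (0.38 ± 0.14, edgeR adjusted p = 0.152). AURKB, the Aurora kinase of the passenger complex that corrects chromosome attachment, was at 88.6, 60.9 and 85.8 CPM in WT and 81.8, 84.8 and 68.9 in KO. Its KO libraries lay inside the WT range and the log2 fold change was 0.00 ± 0.15 (edgeR adjusted p = 0.999). BIRC5, the survivin subunit of the passenger complex, and TTK, the kinase at the top of the checkpoint, had log2 fold changes of 0.25 and 0.45. No gene of this role was called.

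The spindle checkpoint holds back anaphase until all chromosomes are attached, and the genes for it and for the anaphase-promoting complex had the smallest differences. CDC20, the activator of that complex, was at 171, 129 and 161 CPM in WT and 168, 171 and 139 in KO, with full overlap (0.05 ± 0.12, edgeR adjusted p = 0.838). UBE2C, its ubiquitin-conjugating enzyme, was at 119, 89.0 and 130 CPM in WT and 120, 131 and 116 in KO (0.12 ± 0.13, edgeR adjusted p = 0.637). BUB3, a checkpoint protein, was at 133, 137 and 151 CPM in WT and 140, 138 and 134 in KO (-0.03 ± 0.08, edgeR adjusted p = 0.850). BUB3 and PTTG1, which encodes the securin that holds separase in check, were the members with values below 0. BUB1, the checkpoint kinase at kinetochores, was at 75.9, 50.0 and 62.6 CPM in WT and 82.4, 72.3 and 69.5 in KO, where KO replicates 2 and 3 fell below WT replicate 1 (0.25 ± 0.14, edgeR adjusted p = 0.340). In none of the 6 genes of this role did the groups separate, and the median was 0.09. CDC20 reads are uncertain because a processed copy, CDC20P1, took up to 145 counts in a library, and PTTG1 because PTTG3P took up to 18.

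The kinetochore genes were the only role in which every member had all KO libraries above all WT libraries, 5 of 5, where 14.1% of all genes did. These genes moved together from pool to pool, so the 5 are not separate observations. CENPE, the motor that carries chromosomes to the spindle equator, was at 47.2, 29.3 and 42.5 CPM in WT and 70.1, 65.0 and 62.8 in KO. The lowest KO library was well above the highest WT library, and the means of 39.7 ± 9.27 and 66.0 ± 3.78 CPM (SD, n = 3) gave a ratio of 1.66. CENPE rose by 0.73 ± 0.16 on the log2 scale (edgeR adjusted p = 0.0325), the greatest fold change of the 40. Like CCNB1 it stayed called without WT replicate 1 or 2 (log2 fold change 0.88 and 0.56) and not without any other library, where the edgeR adjusted p was 0.0691 to 0.120.

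CENPF, a large protein of the outer kinetochore that accumulates in G2, was at 249, 130 and 182 CPM in WT and 342, 268 and 270 in KO. The groups did not overlap, but WT replicate 2 lay far below the other WT libraries, and the log2 fold change of 0.65 ± 0.24 had an edgeR adjusted p of 0.185. NDC80, which binds microtubules at the kinetochore, was at 41.1, 30.3 and 33.2 CPM in WT and 49.4, 46.0 and 49.7 in KO (0.47 ± 0.12, edgeR adjusted p = 0.0526). Its partner NUF2 and CENPA, the histone variant of the centromere, had log2 fold changes of 0.31 and 0.30. Their groups were separated only narrowly. KO replicate 2, the lowest KO library of both, was at 37 CPM for NUF2 and 13.7 for CENPA. WT replicate 1 was at 36.7 and 13.2.

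Among the genes of spindle assembly, TPX2, which activates Aurora A on spindle microtubules, was at 139, 101 and 118 CPM in WT and 179, 146 and 154 in KO (0.42 ± 0.12, edgeR adjusted p = 0.0812). HMMR, a spindle pole protein, was at 21.4, 15.8 and 21.2 CPM in WT and 27.5, 24.0 and 25.9 in KO (0.41 ± 0.14, edgeR adjusted p = 0.123). DLGAP5, which bundles kinetochore fibres, was at 48.7, 34.6 and 41.8 CPM in WT and 56.9, 51.5 and 50.3 in KO (0.34 ± 0.13, edgeR adjusted p = 0.143). In TPX2, HMMR and DLGAP5 the groups did not overlap, and KO replicate 1 was the highest library in each.

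ASPM, the spindle pole protein whose loss causes microcephaly, varied most between pools, at 73.7, 30.6 and 44.0 CPM in WT and 81.5, 73.0 and 64.4 in KO. WT replicate 1 lay inside the KO range, so the log2 fold change of 0.56 had an SE of 0.33 (edgeR adjusted p = 0.372). KIF11, the motor that pushes spindle poles apart, was at 77.0, 45 and 59.6 CPM in WT and 83.3, 76.2 and 75.1 in KO, with WT replicate 1 again inside the KO range (0.37 ± 0.17, edgeR adjusted p = 0.251). KIF2C, which depolymerizes microtubules, was at 95.2, 62.5 and 75.3 CPM in WT and 86.2, 83.3 and 79.3 in KO (0.09 ± 0.14, edgeR adjusted p = 0.732). NUSAP1, which bundles spindle microtubules, had a log2 fold change of 0.29. None of the 7 was called and their median was 0.37.

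The genes of the last step, cytokinesis, mostly overlapped. KIF23, a motor of the central spindle, was at 66.2, 34.6 and 49.8 CPM in WT and 65.5, 64 and 61.0 in KO (0.34 ± 0.21, edgeR adjusted p = 0.388). KIF14, a motor needed to complete cytokinesis, was at 18.6, 9.14 and 10.8 CPM in WT and 16.4, 13.5 and 13.8 in KO (0.18 ± 0.25, edgeR adjusted p = 0.711). For both, WT replicate 1 was the highest library of the 6. KIF20A, which moves the passenger complex to the midzone, was the only gene of this role with separate groups (log2 fold change 0.32), and PRC1, ECT2 and ANLN, which bundle midzone microtubules, activate RhoA and scaffold the contractile ring, had 0.23, 0.24 and 0.20.

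Most roles made up different shares of the mitotic RNA in the 2 genotypes, so separation was not particular to any role. The checkpoint and anaphase genes took 17.98%, 20.64% and 20.11% of the members' summed CPM in WT and 15.59%, 16.91% and 16.09% in KO, without overlap. The kinetochore genes took 10.03%, 8.76% and 9.12% in WT and 11.88%, 10.70% and 11.27% in KO, also without overlap and in the other direction. The shares of the proliferation marking and compaction genes did not overlap either, and were higher in KO. Those of the kinases, only narrowly, and of the cytokinesis genes were lower in KO without overlap. Only the shares of the cyclin-CDK1 and spindle assembly genes overlapped. All shares are parts of the same sum, so they are not separate observations. The role medians ran from 0.09 to 0.54 with all libraries, from 0.15 to 0.76 without WT replicate 1, and from -0.03 to 0.39 without WT replicate 2, each time with the checkpoint genes lowest. The shares describe 3 libraries a group and were not tested. The checkpoint and kinetochore genes were put first after all 7 roles had been seen.

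**Figure D2:**
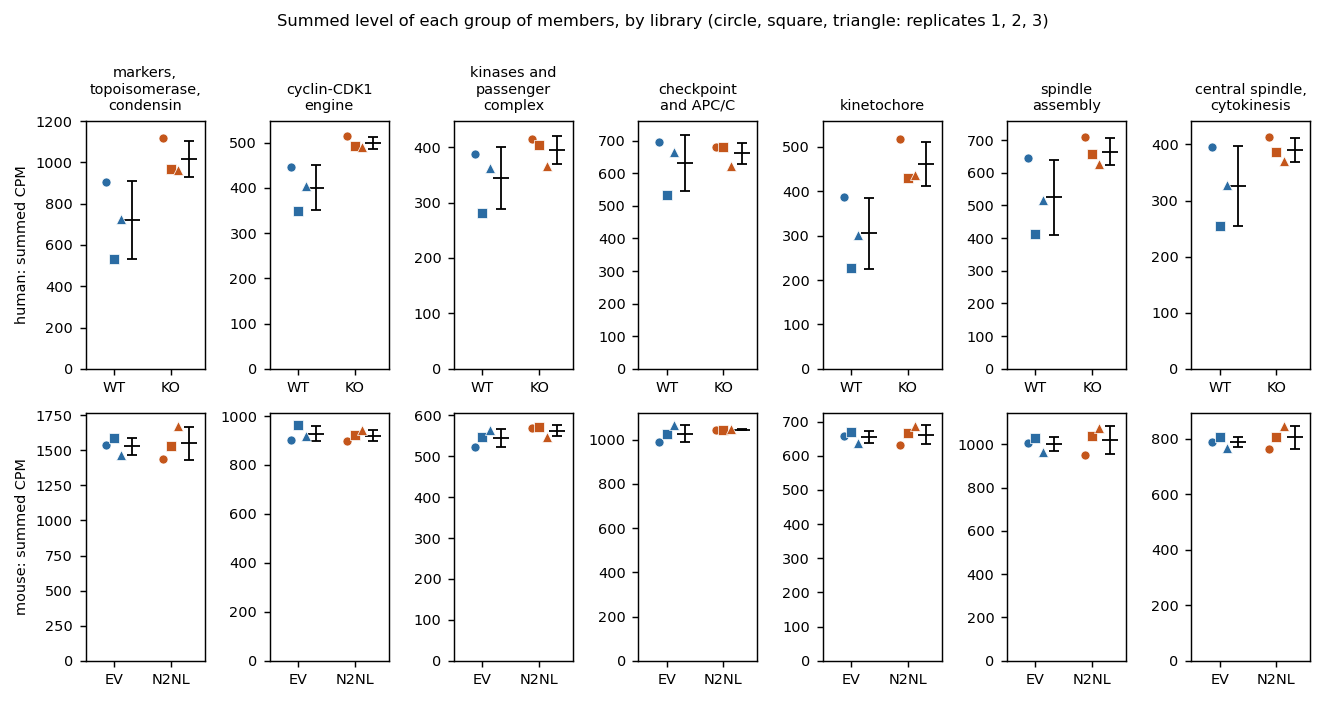
Summed CPM of the members of each role in each library (y axis, from 0), for human organoids in the upper panels and mouse organoids in the lower ones, with a circle, square and triangle for replicates 1, 2 and 3 and the mean with its SD (n = 3) in black. The human kinetochore sums are 227 to 387 CPM in WT and 430 to 519 in KO, whereas the human checkpoint sums and the mouse sums of all 7 roles overlap between groups.

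Levels of different genes can be compared only per length. Per kilobase of exon in GENCODE 29, UBE2C was the most abundant member in WT at 87.7 ± 16.5 CPM per kb (SD, n = 3), then CDC20 at 75.4 ± 10.8 and PTTG1 at 57.4 ± 11.3, while NUSAP1 (54.4 ± 11.3) and TOP2A (53.5 ± 13.4) were within the spread of PTTG1. The least abundant were KIF14 at 1.77 ± 0.694, CENPE at 4.20 ± 0.981 and ASPM at 4.54 ± 2.03. UBE2C, CDC20 and PTTG1 had log2 fold changes of 0.12, 0.05 and -0.02, but NUSAP1 and TOP2A had 0.29 and 0.40. Of the least abundant, KIF14, CENPE and ASPM had 0.18, 0.73 and 0.56. A relation between level and fold change was not tested. Across the 40 members, Spearman's rho between exon length and the human log2 fold change was 0.39, where it was 0.06 over 16856 tested genes with a length. The medians were close, at 0.35 for the 20 longest members and 0.30 for the 20 shortest. All members were read from the same 6 libraries, genes are not independent, and the part of length in the result was not tested.

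The authors' deposited table gave a like picture with more calls: 7 members were higher in KO and 0 lower, where 1348 of the 18275 genes with an adjusted p in that table (7.38%) were called. These are MKI67, NCAPG, CCNB1, CENPE, CENPF, NDC80 and TPX2. DESeq2 run here on the deposited counts called the same 7 genes, where 3.14% of all genes were called higher, and limma-voom called MKI67, CCNB1 and CENPE, where 2.12% were. Neither tool called a member lower.

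Other genes of the cell cycle were read from lists. Of 62 further mitosis genes, all tested, TROAP, a cytoskeletal protein of the spindle, rose by 0.44 ± 0.11 on the log2 scale (edgeR adjusted p = 0.0439), 1 gene where 2.31% of all genes were called higher, and none fell. CKAP2, a spindle microtubule protein, was next, at 0.41 (edgeR adjusted p = 0.0561). In this list 59 of 62 had a log2 fold change above 0, where 49.3% of all genes did, with a median of 0.26, and 14 had all KO libraries above all WT libraries, where 14.1% of all genes did. Among the fits that left out 1 library, the TROAP call was kept only without WT replicate 1. Without WT replicate 1 the median of the list was 0.39, with 60 above 0 and 18 called by edgeR, where 3.8% of all genes were called higher. Without WT replicate 2 it was 0.12, with 47 above 0 and 0 called by edgeR, where 1.45% of all genes were called higher.

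Of 16 regulators of G2/M transcription and entry, 1 was called higher, where 2.31% of all genes were. This was NFYA, a subunit of the factor that binds CCAAT boxes, which rose by 0.49 ± 0.09 (edgeR adjusted p = 0.0159). It was at 31.9, 32.8 and 30.6 CPM in WT and 44.6, 44.2 and 45.3 in KO, and unlike the members it did not follow the order of the WT pools. FOXM1, the forkhead activator of G2 genes, was at 95.4, 70.0 and 87.3 CPM in WT and 115, 128 and 107 in KO, without overlap (0.47 ± 0.12, edgeR adjusted p = 0.0501). The NFYA call was kept in 4 of the 6 fits that left out 1 library, without WT replicate 1 or 2 among them. The other 14 did not pass, and the median of the 16 was 0.15, against 0.24 without WT replicate 1 and 0.06 without WT replicate 2.

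Genes of DNA replication and G1/S had a median near 0. Of 28, 1 was called higher, where 2.31% of all genes were. This was POLA1, the catalytic subunit of the polymerase that primes replication, which rose by 0.58 ± 0.12 (edgeR adjusted p = 0.0262). CCNE2, cyclin E2, was at 0.76 ± 0.20 (edgeR adjusted p = 0.0595), and the median of the list was 0.05. That median was 0.21 without WT replicate 1, with 26 of 28 above 0, and -0.08 without WT replicate 2, with 8 of 28 above 0. The POLA1 call was kept in 2 of the 6 fits that left out 1 library, and lost without WT replicate 2. Their summed level was 3581, 2197 and 2767 CPM in WT and 3068, 3003 and 2480 in KO, so the groups overlapped, with WT replicates 1 and 2 at the 2 ends as for the mitotic genes. The difference between the replication and mitosis lists was not tested. Of 12 genes of cell-cycle exit, 11 were tested: GADD45G, of the GADD45 family of stress-response genes, rose by 0.87 ± 0.18 (edgeR adjusted p = 0.0213), and BTG2, an antiproliferative gene of neurogenic divisions, fell by 0.53 on the log2 scale (edgeR adjusted p = 0.0356). Of all genes, 2.31% were called higher and 3.19% lower. Of the 6 fits that left out 1 library, 3 kept the GADD45G call and 1, without WT replicate 1, kept that of BTG2.

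Markers of cell types were read from the same human libraries. None of 11 radial glia markers was called, and their summed level ran from 4245 to 4675 CPM in WT and from 3487 to 4417 in KO. In 3 of them, named here after their values were seen, the groups did not overlap, 2 upward and 1 downward. Of all genes, 14.1% were separated upward and 14.8% downward, so these counts are near the background. SLC1A3, a glutamate transporter, was at 118, 62.2 and 91.4 CPM in WT and 236, 159 and 200 in KO, a log2 fold change of 1.14 ± 0.26 (edgeR adjusted p = 0.066) that passed the test without WT replicate 1 or without WT replicate 2. PROM1, a membrane protein of neural progenitors, was also higher in every KO library (0.45, edgeR adjusted p = 0.0827), and VIM, an intermediate filament protein that makes up most of the sum, was lower in every KO library (-0.30, edgeR adjusted p = 0.121). Of 12 neuron markers, TUBB3 and MAPT fell (log2 fold changes -0.52 and -0.37, edgeR adjusted p = 0.0316 and 0.0404), where 3.19% of all genes were called lower. Each of these calls was kept in 1 of the 6 fits that left out 1 library, the one without WT replicate 1. The neuron sums overlapped at 3579 to 4411 CPM in WT and 3414 to 4600 in KO. None of 6 intermediate progenitor markers was called, with sums of 312 to 362 CPM in WT and 320 to 393 in KO. The 5 telencephalon markers, none called, summed to 893, 462 and 577 CPM in WT replicates 1, 2 and 3, the same order as the mitotic genes, and to 803, 950 and 500 in KO. Of 9 mesenchyme and neural crest markers, 6 of them tested, PDGFRB rose and LUM fell (log2 fold changes 1.13 and -2.04, edgeR adjusted p = 0.0402 and 0.0181). Of all genes, 2.31% were called higher and 3.19% lower. The sums of these markers were 36.5 to 53.2 CPM in WT and 37.4 to 63.5 in KO. The PDGFRB call was kept in 0 and the LUM call in 3 of the 6 fits that left out 1 library. The 7 markers of endothelium, blood and microglia were low but did not overlap in sum, at 2.01 to 2.86 CPM in WT and 3.45 to 5.78 in KO, with none called and HBA1 at 0 counts. Those of surface epithelium summed to 17, 30.9 and 25.3 CPM in WT and 24.3, 33.1 and 31.0 in KO. The part of cell makeup in the mitotic differences was not tested.

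In mouse organoids, NOTCH2NL expression went with no called difference in any member. None of the 40, all tested, was called by edgeR in either direction, where 0.012% of all 16682 genes tested were called. By edgeR, 1 member had an unadjusted p under 0.05, where 7.45% of all genes did, and DESeq2 and limma-voom also called 0 members, where they called 0.344% and 0.00599% of all genes. The median log2 fold change was 0.01, against -0.01 for all genes, with 22 members above 0 (48.3% of all genes were) and values from -0.08 to 0.18. Summed over the members, the level was 6411, 6622 and 6382 CPM in EV and 6289, 6579 and 6817 in N2NL, with the N2NL libraries on both sides of EV. The authors' deposited table likewise called 0 members, where it called 148 of 12781 genes (1.16%).

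**Figure D3:**
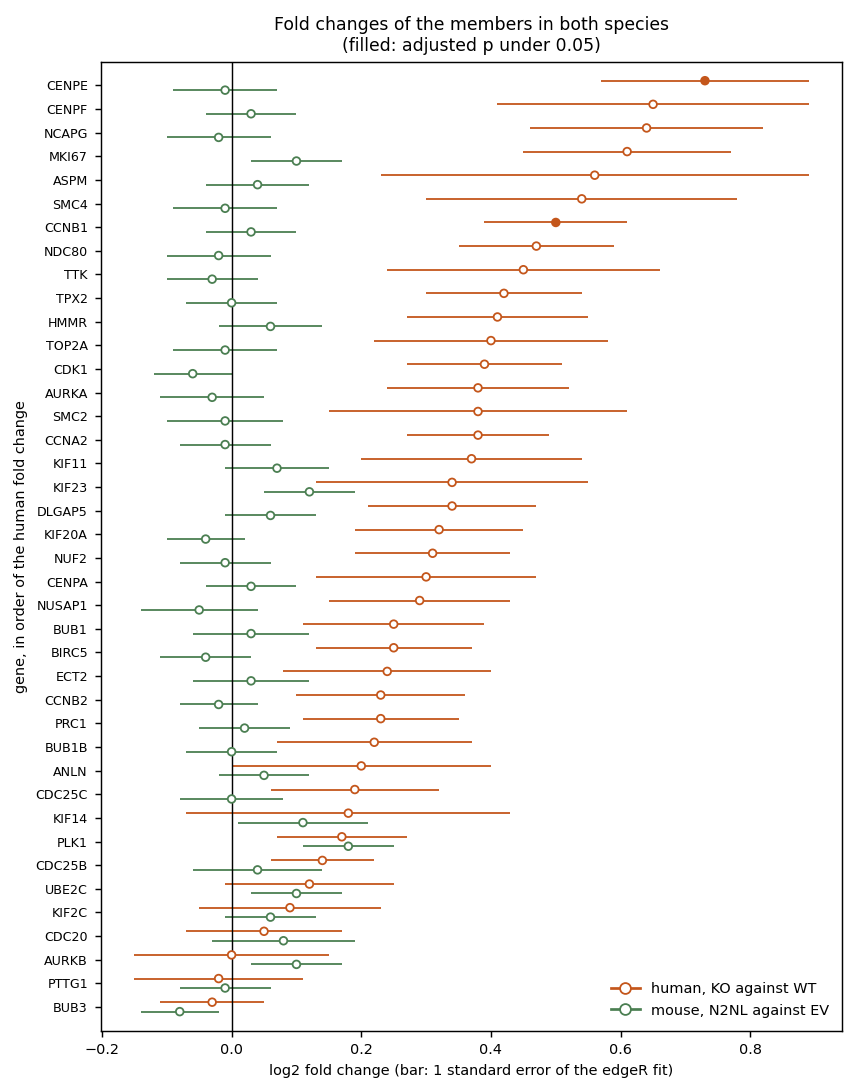
Log2 fold change of each member (x axis) in human KO against WT (orange) and mouse N2NL against EV (green), each with 1 standard error, with genes in order of the human value (y axis); filled points have an adjusted p under 0.05. The human values run from -0.03 to 0.73 and the mouse values from -0.08 to 0.18, and the 2 filled points are CENPE and CCNB1 in human.

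PLK1 had the lowest p of the mouse members. It was at 117, 126 and 133 CPM in EV and 141, 148 and 137 in N2NL, so that every N2NL library was above every EV library, and its log2 fold change was 0.18 ± 0.07 (edgeR adjusted p = 0.606). AURKB was likewise separated, at 95.5, 100 and 102 CPM in EV and 106, 109 and 104 in N2NL (0.10 ± 0.07, edgeR adjusted p = 0.811). Separation upward in 2 of 40 members compares with 7.39% of all genes, and BUB3, at 200, 189 and 191 CPM in EV and 185, 181 and 183 in N2NL, was the 1 member separated downward, where 5.31% of all genes were. Neither share stands out from the background.

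CCNB1 and CENPE, the genes called in human, showed no such separation in mouse. CCNB1 was at 169, 195 and 187 CPM in EV and 195, 176 and 190 in N2NL, with complete overlap (0.03 ± 0.07, edgeR adjusted p = 0.972). CENPE was at 134, 134 and 122 CPM in EV and 120, 127 and 142 in N2NL, the N2NL libraries lying on both sides (-0.01 ± 0.08, edgeR adjusted p = 0.993). MKI67 was at 371, 375 and 365 CPM in EV and 372, 396 and 423 in N2NL, where N2NL replicate 1 lay within the EV values (0.10 ± 0.07, edgeR adjusted p = 0.819). The standard errors of these mouse values were 0.07 to 0.08, smaller than the 0.11 to 0.16 of the same genes in human.

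The remaining mouse members overlapped in every role. Of the compaction genes, TOP2A was at 675, 716 and 676 CPM in EV and 631, 684 and 736 in N2NL, and NCAPG at 87.9, 90.2 and 79.7 in EV and 78.0, 83.2 and 93.1 in N2NL. CDK1 was at 235, 242 and 229 CPM in EV and 220, 225 and 233 in N2NL, and its cyclin CCNA2 at 233, 239 and 217 in EV and 211, 231 and 242 in N2NL. In these genes N2NL replicate 1 was the lowest of the 6 libraries. AURKA was at 121, 137 and 142 CPM in EV and 140, 131 and 121 in N2NL, nearly the same range in both groups. CDC20, the anaphase activator, spread most in EV, at 179, 197 and 243 CPM, against 236, 223 and 195 in N2NL. UBE2C was at 187, 206 and 215 CPM in EV and 227, 219 and 206 in N2NL, and BUB1 at 113, 114 and 106 in EV and 96.0, 115 and 129 in N2NL. The BUB1 values of N2NL spanned those of EV. At the kinetochore, CENPF was at 228, 237 and 225 CPM in EV and 220, 236 and 248 in N2NL, and NDC80 at 65.0, 66.2 and 57.9 in EV and 57.5, 63.8 and 64.8 in N2NL. Neither moved beyond its spread.

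Of the motors and spindle proteins in mouse, KIF23 was at 123, 127 and 125 CPM in EV and 126, 137 and 144 in N2NL, the next lowest p of the mouse members (0.12 ± 0.07, edgeR adjusted p = 0.768). KIF14 was at 31.9, 35.2 and 34.0 CPM in EV and 31.9, 38 and 39.4 in N2NL, and in both genes N2NL replicate 1 lay within the EV range. KIF11 was at 176, 175 and 157 CPM in EV and 164, 175 and 196 in N2NL, and KIF2C at 119, 129 and 128 in EV and 132, 134 and 126 in N2NL. TPX2, at 262, 267 and 260 CPM in EV and 248, 267 and 274 in N2NL, had nearly the same mean in both groups. HMMR was at 101, 106 and 91.1 CPM in EV and 98.7, 104 and 107 in N2NL, and DLGAP5 at 102, 103 and 98.1 in EV and 100, 105 and 109 in N2NL. ASPM was nearly constant in EV, at 105, 104 and 104 CPM, and was at 93.7, 113 and 116 in N2NL. Within N2NL, replicate 1 was the lowest and replicate 3 the highest library for each of these genes but KIF2C.

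The role medians ran from -0.03 for the kinases to 0.06 for spindle assembly. None of the 62 further mitosis genes, 16 regulators, 28 replication genes and 12 exit genes was called by edgeR in mouse, with 6, 6, 2 and 3 of them at an unadjusted p under 0.05, where 7.45% of all genes were. All N2NL libraries were above all EV libraries in 5 of the 16 regulators and 4 of the 62 mitosis genes, where 7.39% of all genes were. The lowest p-values were those of ARHGAP11A and ESPL1 (both 0.23 on the log2 scale), MYBL2 and WEE1 (0.26 and 0.24), CDT1 and MCM6 (0.25 and 0.16), and CDKN2A and BTG1 (-0.42 and -0.15).

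Among the mouse cell markers none was called. Radial glia markers summed to 2044 to 2133 CPM in EV and 1927 to 2198 in N2NL, neuron markers to 789 to 934 in EV and 672 to 751 in N2NL, and telencephalon markers to 367 to 378 in EV and 414 to 439 in N2NL. The last 2 sums did not overlap between groups. Nor did those of the 16 G2/M regulators, at 1287, 1280 and 1335 CPM in EV and 1411, 1431 and 1421 in N2NL, or of the 62 further mitosis genes, at 7103, 7296 and 7437 in EV and 7454, 7496 and 7515 in N2NL. The sums of the 40 members and of the 28 replication genes did overlap. Surface epithelium markers ran from 681 to 1405 CPM, highest in replicate 1 of both groups, and their part in the mitotic levels was not tested. Human and mouse differ in species, stage, day and the direction of the NOTCH2NL change, and no test between them was made.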

How the data were processed

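For each species the deposited files were a table of raw counts, by Ensembl gene, and the authors' DESeq2 comparison. Tools named in the submitters' processing notes, with no role given, were HTSeq 0.6.1p1, STAR 2.4.0, Trimmomatic 0.36, Bowtie2 2.3.3.1 and DESeq2 2.11.39, on GRCh38 and GRCm38. Per the labels' protocols, a strand-specific kit was used. The deposited comparison tables hold normalized values per library, treated as a score, log2 fold changes or their standard errors, and p-values by the authors; from them only the calls and the NOTCH2NL row are printed. In the authors' human table the normalized columns of replicates 1 and 3 are exchanged within each group against the raw count columns, whose numbers are used here.

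The deposited counts were filtered (filterByExpr), scaled by TMM and tested with the quasi-likelihood F test of edgeR 4.0.16 in R 4.3.3, the 3 libraries of 1 group against the 3 of the other within a species, with Benjamini-Hochberg adjustment over all genes. The counter's summary lines, present in the mouse table, were left out of library sizes (reads with no unique alignment were 26.64% to 33.67% of each column's total). A library with no read of a gene allows a level of 0.195 CPM at most (mouse, 0.179), taking 3 counts as the limit and counting error alone. On simulated data, 85 of 100 genes changed by 2-fold and 34 of 100 changed by 1.5-fold were recovered at the human spread over 16674 genes, and 98 and 82 at the mouse spread over 16455. Of the unchanged genes in the same simulations, 15 were called in human and 25 in mouse. Alternatives were library size or DESeq2 size factors as scaling, no filter or 10 counts in 3 libraries, DESeq2 1.42.0, limma-voom (limma 3.58.1), a replicate block, and leaving out each library.

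The members, roles and lists were chosen with earlier results of these data known. Values in every library are given for 24 members: those called, the 10 with the lowest p in either species and 10 core genes. Of the other lists only called genes and the 2 with the lowest p are named.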

Additional observations from a re-analysis of the deposited data

How the results depend on the processing

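Under the alternatives run, the median member log2 fold change kept its sign and moved by less than the spread between replicates in both species, except that the mouse median, near 0, was -0.02 without N2NL replicate 3. In human the median ran from 0.16 (without WT replicate 2) to 0.47 (without WT replicate 1). The human spread was that of the WT libraries, whose median member log2 levels against the WT mean were 0.23, -0.32 and 0.00. Leaving out 1 of these same libraries could hardly move the median beyond that spread, so this is a weak check. The number of members called in human, 2 as reported (5.5% of all genes), depended on the setting. It was 4 with library size alone (5.36% of all genes) and 17 with no filter on low counts (6.55%, 2155 of 32919 genes). It was 7 with DESeq2 (7.12%) and 0 to 19 when 1 library was left out (1.29% to 8.27%). The further mitosis genes called, 1 as reported, were 3, 11, 5, 0 and 2 with library size alone, no filter, DESeq2, limma-voom and the replicate block, and 0 to 18 when 1 library was left out. The cause of these shifts was not tested. All genes called in human were 932 as reported, 838 with limma-voom (4.94%) and 224 to 1440 when 1 library was left out. The replicate numbers did not pair the pools: same-numbered libraries correlated at 0.24, -0.14 and 0.15 in human and 0.19, 0.03 and -0.01 in mouse (deviations from group means), and not every library correlated best with its own number. With the replicate number as a block, 7 human members were called (899 genes in all) and 0 mouse members (21 genes in all). No member was called in mouse under any alternative. Of 312 values of single human members under alternatives, 38 passed the test where the reported value did not, 8 did not where it did (CCNB1 and CENPE, each without WT replicate 3 or 1 of the KO libraries), and 9 changed sign, all of values that did not pass.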
